A study of Mus musculus with 4 samples.

Results

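The genes that present peptides on MHC class II were followed in normal and ischemic mouse kidney: H2-Aa, H2-Ab1 and H2-Eb1, which encode class II chains, Cd74, which encodes the invariant chain, H2-DMa and H2-DMb1, which encode the peptide exchange factor H2-DM, and Ciita, which encodes the class II transactivator. They were picked by name as a pathway, with earlier results of these data known, and all 7 were found among the 32285 genes listed for every section. The data were Visium spatial counts, in which barcoded spots under a tissue section bind its RNA and molecules are counted by unique molecular identifiers (UMIs). A spot can hold several cells of different types. There were 2 sections of normal kidney and 2 of ischemic kidney, all from the left kidney of male wild-type C57BL/6J mice aged 7 to 8 weeks, snap-frozen and cut at 10 µm. The ischemic mice had both renal pedicles clamped for 30 min and were examined at 24 h, and the normal mice were labelled as controls. The labels do not tie a section to a mouse. The study's methods describe 2 mice per condition with 2 technical replicates each. The p-values therefore measure the spread between sections, which may be technical.

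Class II molecules display peptides taken up from outside the cell to CD4+ T cells. Their expression is mostly restricted to dendritic cells, B cells and macrophages, although interferon gamma can induce it in other cells, renal tubular epithelium included. The alpha and beta chains assemble in the endoplasmic reticulum around the invariant chain, which fills the peptide groove and guides the complex to endosomes. There the invariant chain is cut down to a short fragment and H2-DM exchanges that fragment for other peptides. CIITA binds no DNA itself but joins the RFX and NF-Y factors that sit on the X and Y boxes of these promoters, and it is needed for their expression. In C57BL/6 mice the alpha chain partner of H2-Eb1 is not made, so that its transcript is present without a surface I-E molecule.

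The 7 genes are protein coding and were placed on GRCm38 by GENCODE annotation. H2-Aa lies on chromosome 17 at 34282744 to 34287823 on the minus strand. On the plus strand of chromosome 17, H2-DMa lies at 34119541 to 34139101, H2-DMb1 at 34153072 to 34160230, H2-Ab1 at 34257689 to 34269419 and H2-Eb1 at 34305867 to 34316674. Ciita lies on chromosome 16 at 10480059 to 10528418 and Cd74 on chromosome 18 at 60803848 to 60812652, both on the plus strand.

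Promoters from RefSeq (GRCm38.p6) were matched for 4 of the 7 genes, namely H2-Aa, H2-Eb1, H2-DMa and H2-DMb1. Each entry runs from 250 bases before to 50 bases after the start site. They were searched on both strands for an X box core (AG, any 2 bases, AC, any base, GATG) and for a Y box, ATTGG, which do not overlap each other here. Among all 32851 promoters of the table, 0.968% held the X box core, 37.4% the Y box and 0.387% both. Below are the 80 bases from position -110 to -31 for H2-Eb1 (chr17:34305757-34305836, plus strand), which had the largest fall of the 7 genes, and for H2-Aa (chr17:34287854-34287933, minus strand), the alpha chain, with the boxes in capitals.

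H2-Eb1: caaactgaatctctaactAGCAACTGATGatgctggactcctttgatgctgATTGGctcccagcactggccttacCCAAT

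H2-Aa: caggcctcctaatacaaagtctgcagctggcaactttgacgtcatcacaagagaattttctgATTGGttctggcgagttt

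In H2-Eb1 the X box core began at -92 and the Y box at -59, with 22 bases between them, and a second Y box began at -35 on the other strand. H2-DMb1, the gene with the smallest fall, held the same arrangement. Its X box core, AGTAACTGATG, began at -95 and its Y box at -61, with 23 bases between them, in a stretch inside the gene span that GENCODE gives. H2-Aa held the Y box at -48 and no match to the X box core as spelled. Of the 2 promoters listed for H2-DMa, 1 held a Y box, at -198, and neither held the X box core. Both lie inside the gene span that GENCODE gives, and the sequence at the start of that span was not searched. A gamma-activated site, TTCNNNGAA, which occurs in 8.30% of all promoters, was in none of these 5 windows. These matches describe letters only.

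The sections held between 25957128 and 44528078 UMIs over 2401 to 2682 tissue spots each, 10312 spots in all, with medians of 8656 to 16162.5 UMIs per spot. Levels are given as CPM, UMI counts brought to a common library total with edgeR's TMM scaling, and tests compared sections, never spots. The injury genes Havcr1 and Lcn2, which check the labels, differed by 9.64 and 8.78 on the log2 scale. Of 15305 genes tested over whole sections, 29.7% were lower and 31% higher in ischemic sections at an adjusted p under 0.05 (quasi-likelihood test of edgeR, Benjamini-Hochberg), and 82.2% did not overlap between conditions.

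In whole sections, all 7 class II presentation genes were lower in ischemic than in normal kidney, against 29.7% of all genes tested. The 3 chains and the invariant chain fell most, the transactivator nearly as far, and the 2 genes of H2-DM least. The median log2 difference was 0.04 over all genes tested. In sums over spots, fewer expressing cells and less RNA per cell cannot be told apart.

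The chains came first in the size of the fall. H2-Eb1 stood at 141 and 178 CPM in normal sections 1 and 2 and at 13.9 and 13.2 CPM in ischemic sections 1 and 2. The ischemic sections lay close together and far below both normal sections. Its mean level was 11.8-fold lower, a log2 difference of -3.56 (SE 0.15, n = 2 and 2 sections, edgeR adjusted p = 2.06e-07). H2-Ab1, the beta chain of I-A, stood at 178 and 209 CPM against 19.6 and 18.5 CPM. The groups did not overlap, and the mean level was 10.2-fold lower, a log2 difference of -3.34 (SE 0.13, edgeR adjusted p = 1.76e-07). H2-Aa, the alpha chain of I-A, stood at 108 and 134 CPM against 11.7 and 12.6 CPM. Both ischemic sections were again below both normal sections, by 9.98-fold in the mean, with a log2 difference of -3.32 (SE 0.14, edgeR adjusted p = 2.34e-07).

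Cd74 fell together with the chains. Its level was 403 and 445 CPM in the normal sections and 46.8 and 47.4 CPM in the ischemic sections. The ischemic values differed from each other by far less than from either normal value. The mean was 9.01-fold lower, a log2 difference of -3.17 (SE 0.13, edgeR adjusted p = 2.35e-07).

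The peptide exchange genes moved the same way by a smaller amount. H2-DMa stood at 14.9 and 19.8 CPM in normal sections and 5.01 and 4.61 CPM in ischemic sections, 3.61-fold lower in the mean, with a log2 difference of -1.84 (SE 0.16, edgeR adjusted p = 1.45e-05). H2-DMb1 stood at 18.4 and 24.5 CPM against 8.72 and 8.45 CPM, 2.50-fold lower, with a log2 difference of -1.31 (SE 0.15, edgeR adjusted p = 6.23e-05). Neither gene overlapped between conditions. H2-DMb1 has a close paralog, H2-DMb2, and reads that fit both may have been left out or split by the counting, so the level of each is uncertain.

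Ciita, the transactivator, was sparse, with 130 UMIs in each normal section and 18 and 15 UMIs in ischemic sections 1 and 2. These counts correspond to 3.52 and 4.71 CPM against 0.530 and 0.523 CPM. The groups did not overlap, and the mean level was 7.82-fold lower, a log2 difference of -2.95 (SE 0.28, edgeR adjusted p = 2.41e-05).

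**Figure D1:**
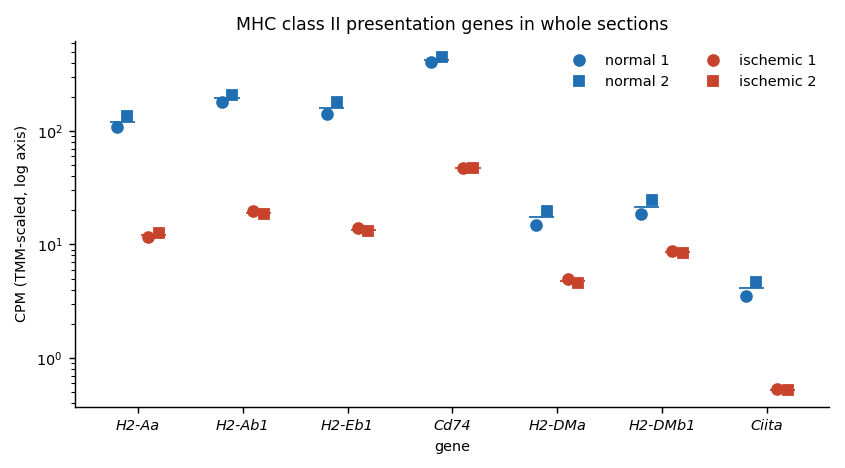
TMM-scaled CPM (log axis) of each class II presentation gene in the 4 sections, with normal sections in blue, ischemic sections in red, circles for section 1, squares for section 2 and a bar at the mean of each condition. For every gene both ischemic sections lie below both normal sections, from 11.8-fold lower for H2-Eb1 to 2.50-fold lower for H2-DMb1.

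The make-up of the class II UMIs shifted with these unequal falls. The 7 genes gave 31954 and 28032 UMIs in the normal sections and 3605 and 3015 UMIs in the ischemic sections. Of these, Cd74 gave 46.5% and 43.8% in normal sections and 44.0% and 45.0% in ischemic sections, so that its share overlapped between conditions. H2-DMb1 gave 2.12% and 2.41% in normal sections and 8.21% and 8.03% in ischemic sections. H2-DMa gave 1.72% and 1.95% against 4.72% and 4.38%. H2-Eb1 gave 16.3% and 17.6% against 13.1% and 12.6%, the largest loss of share among the chains.

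The share of spots with at least 1 UMI of any of the 7 genes was 95.8% (exact 95% interval 94.996 to 96.6) and 90.01% (88.8 to 91.1) in normal sections, and 58.9% (56.9 to 60.8) and 50.02% (48.1 to 51.96) in ischemic sections. After each spot was thinned to 2000 UMIs to remove differences of depth, the shares were 62.1% and 67.1% against 19.0% and 17.8%. At either depth both ischemic sections lay below both normal sections. Spots with all 3 chains made up 42.7% and 32.8% of normal sections and 2.79% and 1.88% of ischemic sections. Thinned, they made up 3.70% and 5.17% of normal sections and 0.0427% of ischemic section 1, while ischemic section 2 had 0 of 2508 spots, which allows up to 0.147% by the exact interval. The intervals cover counting error only.

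Spots were then placed in cortex, outer stripe, inner stripe, inner medulla or pelvis by marker genes, pooling each spot with at most 6 neighbours. Between 57.8% and 84.6% of spots kept their zone without the neighbours, except in the ischemic pelvis, where 28.3% and 28.5% did. The pelvis list summed to 5215 and 6336 CPM in normal pelvis spots and to 766 and 1116 CPM in ischemic pelvis spots, before TMM scaling. On the same scale the inner medulla list was higher in the ischemic outer stripe, at 6283 and 6207 CPM, than in ischemic spots called inner medulla, at 4110 and 4248 CPM. By these measures zones of ischemic sections are less sure than those of normal sections. The normal inner medulla was mixed as well. Its spots carried the pelvis list at 916 and 2355 CPM, against 6.47 and 63.6 CPM in ischemic inner medulla spots.

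Within zones, 34 of 35 gene and zone pairs were lower in ischemic sections, where 24.1% of genes tested were lower in cortex, 32.9% in outer stripe, 23% in inner stripe, 16.4% in inner medulla and 14.6% in pelvis. The exception was H2-DMb1 in cortex. The log2 differences of the chains and of Cd74 were closer to 0 in cortex than in any other zone.

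In the cortex, the outer layer with glomeruli and proximal tubules, H2-Ab1 stood at 141 and 156 CPM in normal sections and 26.1 and 22.4 CPM in ischemic sections. Cd74 stood at 322 and 338 CPM against 60.1 and 52.0 CPM. The log2 differences of the 4 genes lay between -2.59 for H2-Ab1 and -2.54 for Cd74 (SE 0.12 and 0.11), and all 4 passed. In the outer stripe, home of the straight proximal tubule, the log2 differences of the same 4 genes lay between -3.57 and -3.17. H2-Eb1 had the lowest, from 182 and 192 CPM to 14.2 and 16.6 CPM (log2 difference -3.57, SE 0.12, edgeR adjusted p = 3.88e-17).

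In the inner stripe, which carries thick ascending limbs, H2-Eb1 stood at 195 and 203 CPM in normal sections and at 6.34 and 9.52 CPM in ischemic sections (log2 difference -4.62, SE 0.24, edgeR adjusted p = 4.72e-06). In the inner medulla H2-Aa stood at 206 and 257 CPM against 5.03 and 5.99 CPM, from 16 and 17 UMIs (log2 difference -5.38, SE 0.26, edgeR adjusted p = 5.63e-05). This was the largest fall of a gene with UMIs in both ischemic sections. In the pelvis, Cd74 stood at 1056 and 1243 CPM against 77.7 and 52.9 CPM (log2 difference -4.12, SE 0.23, edgeR adjusted p = 4.20e-07).

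Spots called inner medulla in normal section 1 also carried the adipocyte list at 7401 CPM and the red cell list at 51208 CPM, against 1075 and 14260 CPM in normal section 2 and 225 to 277 and 452 to 867 CPM in the ischemic sections. The part of these cells, and of pelvis tissue in normal spots called inner medulla, in the inner medulla values was not tested.

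H2-DMa and H2-DMb1 were set apart by the cortex. H2-DMb1 stood at 16.7 and 20.5 CPM in normal cortex and at 16.3 and 15.6 CPM in ischemic cortex. The ischemic values lay just under the lower normal value, with a log2 difference of -0.19 (SE 0.14, edgeR adjusted p = 0.289) that did not pass. Without normal section 1 the difference was -0.36 (edgeR adjusted p = 0.0357), and with library size alone it was 0.00. In the other 4 zones H2-DMb1 fell by 1.98 to 3.16 on the log2 scale, in the outer stripe from 22.4 and 26.6 CPM to 5.77 and 6.31 CPM. H2-DMa fell in cortex by 0.85 (SE 0.20, edgeR adjusted p = 0.00247), from 11.1 and 12.0 CPM to 7.34 and 4.97 CPM, and by 2.11 to 3.34 elsewhere.

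Ciita was lower in each zone, on few UMIs. In cortex it had 44 and 34 UMIs in normal sections and 10 and 5 in ischemic sections (log2 difference -2.01, SE 0.38, edgeR adjusted p = 5.74e-04). In the inner stripe and the pelvis neither ischemic section had a Ciita UMI, while the normal sections together had 32 and 45. With 3 counts as the floor of each section, its level was at least 7.27-fold lower in the inner stripe and at least 6.77-fold lower in the pelvis. In the inner medulla it rested on 1 and 2 ischemic UMIs and did not pass without ischemic section 1 (edgeR adjusted p = 0.125).

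**Figure D2:**
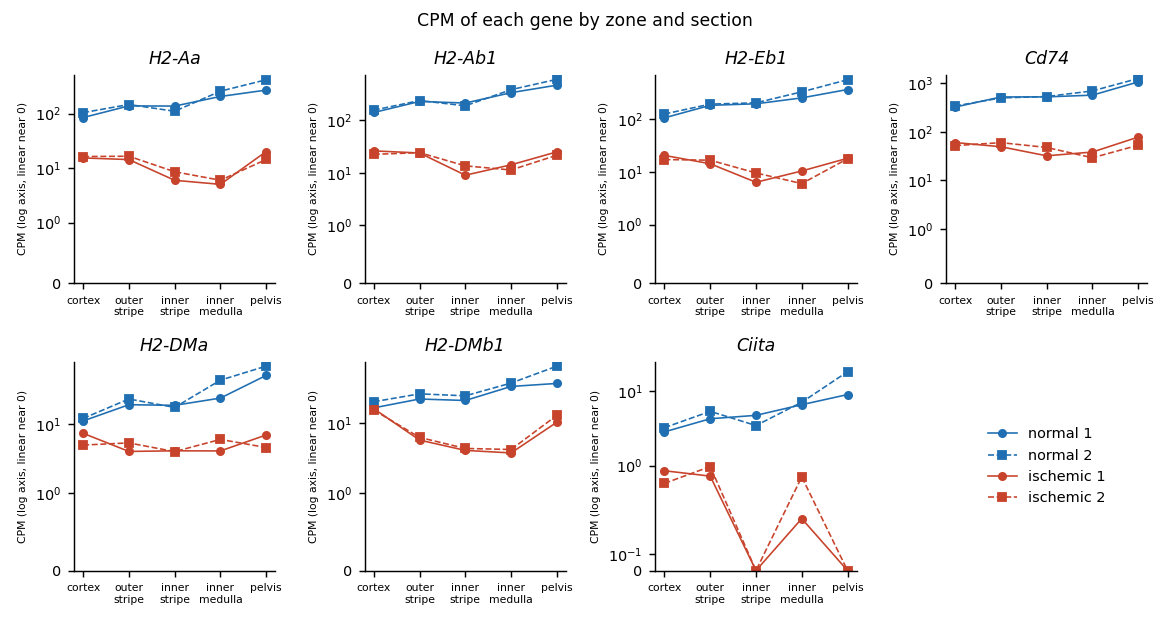
CPM of each class II presentation gene (log axis, linear near 0) in 5 zones of each section, normal in blue and ischemic in red, with circles and solid lines for section 1 and squares and dashed lines for section 2. Normal levels are lowest in cortex and highest in pelvis, at 322 and 338 against 1056 and 1243 CPM for Cd74. Not every gene rises at each step between, and ischemic levels do not follow this order. The ischemic H2-DMb1 level in cortex reaches 16.3 and 15.6 CPM, beside 16.7 and 20.5 CPM in normal cortex.

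Zones were next compared with the cortex of the same sections, in 1 edgeR fit over all section and zone sums with the section as a block. In normal sections 25 of 28 pairs were higher than in cortex, where 12.5% of genes tested were higher in outer stripe, 14.2% in inner stripe, 19.6% in inner medulla and 24% in pelvis. The pairs that did not pass were H2-DMb1 in inner stripe (0.32, edgeR adjusted p = 0.0973) and Ciita in outer stripe (0.65, edgeR adjusted p = 0.128) and inner stripe (0.49, edgeR adjusted p = 0.337).

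The pelvis was highest for all 7 genes. The differences from cortex there were 1.86 for H2-Aa (SE 0.14), 1.85 for H2-Ab1 (SE 0.12), 1.99 for H2-Eb1 (SE 0.13) and 1.80 for Cd74 (SE 0.15) on the log2 scale. H2-DMa was higher by 2.35 (SE 0.19), H2-DMb1 by 1.49 (SE 0.15) and Ciita by 2.17 (SE 0.34). In the inner medulla the differences ran from 0.93 for Cd74 to 1.56 for H2-DMa, and in the outer stripe, where 6 of 7 passed, from 0.40 for H2-DMb1 to 0.85 for H2-DMa. Those of the inner stripe were the least sure, since without normal section 1 the differences of H2-Aa (-0.01), H2-Ab1 (0.18) and H2-DMa (0.43) did not pass.

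The normal pelvis also carried more leukocyte RNA. All 10 genes of the general leukocyte list were higher in the pelvis than in cortex, at a median of 2.05 on the log2 scale, with Ptprc, which encodes CD45, at 2.34 and Cd52 at 2.47. The dendritic cell list had 9 of 10 genes higher (median 2.35), the T cell list 8 of 9 (median 2.33) and the class I list 11 of 14 (median 1.45). Resident macrophage genes had 8 of 10 higher and 1 lower (median 1.61), and B cell genes 3 of 5 higher (median 1.03). The interferon gamma list had 12 of 13 higher (median 1.46) and the injured tubule list 8 of 9 (median 2.39). The latter is not read here as injury of the normal pelvis. The part of what these lists mark in the zone differences of the class II genes was not tested.

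In ischemic sections 12 of the 28 pairs were lower than in cortex by edgeR's test, where 19.3% of genes tested were lower in outer stripe, 26.5% in inner stripe, 24.9% in inner medulla and 20.1% in pelvis. None of the pairs was higher, where 16.9%, 23%, 20.7% and 16.5% of genes tested were higher in these zones. The chains and Cd74 were lower in inner stripe and inner medulla. H2-Aa differed by -1.13 (SE 0.25) and -1.52 (SE 0.31), H2-Ab1 by -1.12 (SE 0.18) and -0.93 (SE 0.20), H2-Eb1 by -1.25 (SE 0.22) and -1.19 (SE 0.26), and Cd74 by -0.50 (SE 0.17) and -0.72 (SE 0.19). H2-DMb1 was lower by the widest margin, at -1.41 in outer stripe (SE 0.16), -1.91 in inner stripe (SE 0.19) and -1.997 in inner medulla (SE 0.24). Ciita in inner stripe, at no UMI in either section, was the last of the 12. Without ischemic section 1 there were 9 calls, and Cd74 in inner stripe stood at -0.12 (edgeR adjusted p = 0.692). Ciita in inner stripe did not pass without either ischemic section, with edgeR adjusted p of 0.125 and 0.0587.

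Leukocyte lists were read in the same ischemic zones. In the outer stripe all 10 genes of the general leukocyte list were higher than in cortex (median 1.22), among them Tyrobp at 1.40 and Ptprc at 0.80 on the log2 scale. All 9 genes of the list for recruited monocytes and macrophages were higher too (median 2.04), with Lyz2 at 2.22. The dendritic cell, B cell, resident macrophage and T cell lists were closer to cortex there. Of 10 dendritic cell genes 0 were higher (median 0.27), and of 5 B cell genes 1 (median 0.17). Of 10 resident macrophage genes 2 were higher and 2 lower (median 0.15), and of 9 T cell genes 0 were higher (median -0.15). None of the dendritic, B or T cell genes was lower. For the same zone the 3 chains differed from cortex by -0.04, -0.02 and -0.30, and Cd74 by -0.04, none past the threshold, with edgeR adjusted p between 0.201 and 0.927. The chains and Cd74 were lower in inner stripe and inner medulla. There 8 of 10 general leukocyte genes were higher in each zone (medians 0.86 and 1.22). Of 10 resident macrophage genes, 5 were higher and 1 lower in each (medians 0.53 and 0.71). Of 9 recruited monocyte and macrophage genes, 6 and 8 were higher (medians 1.17 and 1.89). In each zone 1 of 10 dendritic cell genes (medians -0.12 and -0.53) and 1 of 5 B cell genes (medians 0.90 and 0.50) was higher. In the pelvis 5 of 10 general leukocyte genes were higher (median 0.95). The part of what these lists mark in the class II levels of ischemic zones was not tested.

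The zone difference itself changed with ischemia in 25 of 28 pairs, each time downward, where 13.5% of genes tested changed downward in outer stripe, 13.9% in inner stripe, 9.7% in inner medulla and 6.53% in pelvis. The largest changes of genes with UMIs throughout were those of the inner medulla, -2.93 for H2-DMb1 (SE 0.29) and -2.83 for H2-Aa (SE 0.34). Spots called inner medulla were not alike in the 2 conditions. They carried the pelvis list at 916 and 2355 CPM in normal and 6.47 and 63.6 CPM in ischemic sections, before TMM scaling. The part of this in the changes was not tested. H2-Aa in outer stripe missed the threshold (-0.65, edgeR adjusted p = 0.0533), as did Ciita in outer stripe and inner medulla (edgeR adjusted p = 0.660 and 0.261). Without ischemic section 1 the count was 15 of 28, and with another section left out it was 21 to 26.

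**Figure D3:**
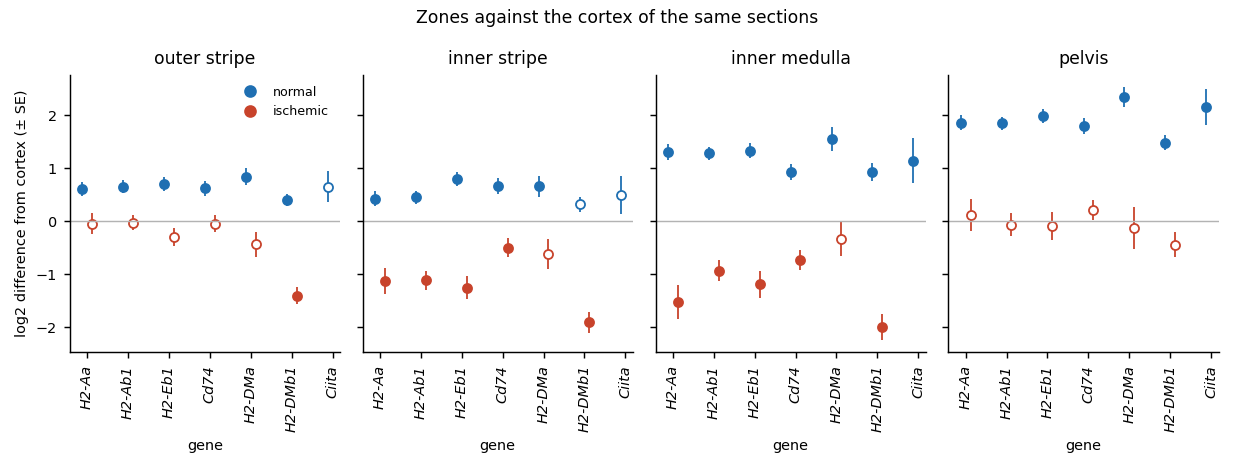
Log2 difference of each zone from the cortex of the same sections (points, with SE as bars) for normal sections in blue and ischemic sections in red, filled where the edgeR adjusted p was under 0.05, with ischemic Ciita left out because 2 zones held no UMI. Normal values lie above 0 in each of the 4 zones, reaching 2.35 for H2-DMa in pelvis, and ischemic values lie near or below 0, reaching -1.997 for H2-DMb1 in inner medulla.

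The 5% of spots with the highest summed class II level changed place. They held 21.7% and 29.5% of the class II UMIs in normal sections and 27.8% and 27.6% in ischemic sections, so that the concentration overlapped between conditions at full depth. After thinning to 2000 UMIs the shares were 31.3% and 30.9% against 44.3% and 45.2%, but a class II UMI was left in 19.0% and 17.8% of ischemic spots against 62.1% and 67.1% of normal spots. Fewer class II UMIs alone raise the share held by the top spots, so no difference in concentration is read from the thinned values. In normal sections 36.2% and 31.8% of these spots were in the pelvis, which took 5.01% and 5.03% of all spots, and 10.8% and 15.9% were in cortex. In ischemic sections 5.88% and 5.43% were in the pelvis, while 63.0% and 40.3% were in cortex, which took 39.7% and 36.5% of all spots. The excess in cortex was small in ischemic section 2. With 3605 and 3015 class II UMIs over 2401 and 2613 ischemic spots, the choice of top spots there rests on few UMIs. Their place is therefore less sure than in normal sections.

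The content of these spots differed as well, in CPM before TMM scaling. In normal sections they held the B cell list at 314 and 419 CPM against 28.3 and 61.7 CPM in the other spots, and the T cell list at 153 and 361 CPM against 16.4 and 28.5 CPM. In ischemic sections the B cell list stood at 80.4 and 17.9 CPM in the top spots and 8.59 and 6.81 CPM in the others. The T cell list stood at 6.49 and 8.94 CPM against 3.76 and 3.85 CPM, and the dendritic cell list at 28.4 and 38.7 against 14.9 and 15.4 CPM. General leukocyte genes summed to 454 and 419 CPM against 196 and 199 CPM, and the neutrophil list to 318 and 200 CPM against 181 and 186 CPM. Spots were chosen by the class II level itself, so these values are a description.

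**Figure D4:**
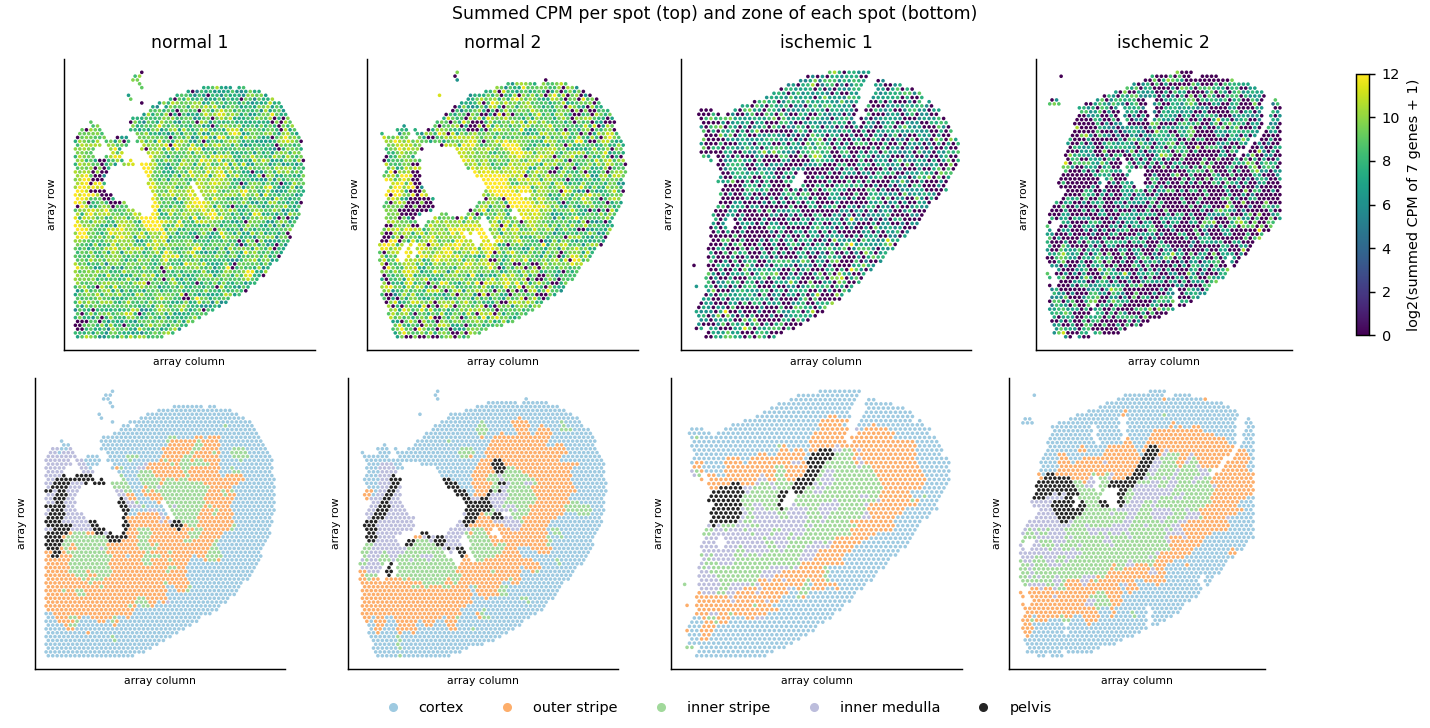
Maps of the 4 sections by array row and column, with the zone of each spot below. Above is the log2 of the summed CPM of the 7 genes plus 1 in each spot, before TMM scaling. In normal sections 36.2% and 31.8% of the top 5% of spots lie in the pelvis, and the ischemic maps are darker, with a class II UMI in 58.9% and 50.02% of spots.

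Lists of other genes were read beside these results. Of the other class II pathway genes, 18 were tested, of which 5 were higher, 6 lower and 7 did not pass, with a median of -0.11. H2-Oa and H2-Ob, the chains of H2-DO, an inhibitor of H2-DM found mostly in B cells, fell as well. H2-Oa stood at 1.79 and 2.83 CPM in normal sections and 0.265 and 0.140 CPM in ischemic sections (-3.44, SE 0.42), and H2-Ob at 1.95 and 2.50 CPM against 0.294 and 0.105 CPM (-3.40, SE 0.41). H2-DMb2 fell by 1.75 on the log2 scale (SE 0.25). Ctsl, a protease that cuts the invariant chain, rose by 0.91 (SE 0.14), while Ctss, the protease used for this step by dendritic cells and B cells, stood at 15.5 and 20.4 against 18.1 and 16.3 CPM (-0.05, SE 0.14, edgeR adjusted p = 0.748). Of the factors on the X and Y boxes, Nfyb rose by 0.67 (SE 0.10), Rfxank fell by 0.85 (SE 0.13) and Rfx5 did not pass (0.23, SE 0.14). With library size alone, 6 of the list were higher, 5 lower and the median was 0.14. Without normal section 1, 9 were lower (median -0.35), without normal section 2 the median was 0.17, and without ischemic section 2, 2 were higher.

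Class I presentation genes, which serve cytosolic peptides in nearly all cells, had 3 of 14 higher and 7 lower, with a median of -0.19. H2-K1 fell by 0.45 (SE 0.13) and H2-D1 by 0.42 (SE 0.14). Psmb9, an immunoproteasome subunit, fell furthest, from 10.0 and 18.6 CPM to 4.06 and 4.36 CPM (-1.75, SE 0.27), followed by Nlrc5, the class I counterpart of Ciita (-1.28, SE 0.27). Erap1 and Pdia3 rose by 0.64 and 0.54. With library size alone, 5 were higher, 3 lower and the median was 0.07, and without ischemic section 1 or 2, 3 or 4 were lower.

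The interferon gamma list had 5 of 12 genes higher and 4 lower, with a median of 0.17. With library size alone it had 5 higher and 2 lower (median 0.42), without normal section 1 it had 5 and 5 (median -0.03), and without normal section 2 it had 7 and 3 (median 0.44). Without ischemic section 2, when 14 were tested, it had 4 and 4 (median -0.12). The sign of the median therefore depends on the setting. Both receptor chains rose, Ifngr1 by 0.55 (SE 0.10) and Ifngr2 by 1.49 (SE 0.10), as did Jak1 by 0.61. Among induced genes, Gbp2 fell by 1.18 (SE 0.19), and Cxcl9, a chemokine induced by interferon gamma, stood at 5.91 and 11.9 CPM in normal sections and at 0.0589 and 0.0349 CPM in ischemic sections. Ifng itself had too few UMIs to be tested.

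Most genes of the dendritic cell, B cell and T cell lists were lower. Of 10 dendritic cell genes 9 were lower (median -2.54). Xcr1, a marker of type 1 conventional dendritic cells, stood at 1.00 and 1.23 CPM in normal sections and 0.0294 and 0.0349 CPM in ischemic sections. Ccr7, which migrating dendritic cells share with naive and central memory T cells, stood at 1.03 and 2.57 CPM against 0 and 0.0349 CPM. Flt3 fell by 2.05 (SE 0.57), while Zbtb46 rose by 0.48 (SE 0.15). Of 5 B cell genes tested 4 were lower (median -2.66), among them Cd79a by -2.66, Cd79b by -2.18, Ighm by -3.45 and Igkc by -4.58 on the log2 scale, and Fcmr rose by 1.98. All 9 T cell genes tested were lower (median -4.04), with Cd3d at -4.30, Trbc1 at -4.47 and Trbc2 at -5.32. Cd3e stood at 0.949 and 1.85 CPM against 0.118 and 0.0349 CPM.

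Macrophage and neutrophil lists moved in different directions. Of 10 resident macrophage genes 5 were lower, 1 was higher and 4 did not pass (median -0.43). With library size alone 2 were lower (median -0.18), and with the replicate block 6 were lower (median -0.42). The median was -0.52 without normal section 1 and -0.27 without normal section 2. It was -0.50 and -0.44 without ischemic sections 1 and 2. C1qa fell by 0.41 (SE 0.12), C1qb by 0.45 (SE 0.14), C1qc by 0.55 (SE 0.13) and Csf1r by 1.96 (SE 0.12), while Cd68 rose by 2.25 (SE 0.12). Of the 9 genes of recruited monocytes and macrophages 6 were higher and 1 lower (median 1.89), with Ly6c2 at -2.25, Ccr2 not past the threshold (0.15, SE 0.25), and Chil3 at 0.136 and 0.109 CPM in normal against 19.5 and 17.0 CPM in ischemic sections. Arg1 had no UMI in normal sections and 1.06 and 0.907 CPM in ischemic sections. All 8 neutrophil genes were higher, S100a8 by 7.17 (SE 0.16) and S100a9 by 6.59 (SE 0.14), and Mmp8, at no UMI in normal sections, reached 0.589 and 0.419 CPM. Their median was 5.17 as fitted and 3.69 with Mmp8 at its bound.

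Of the 10 general leukocyte genes 4 were lower and 6 did not pass (median -0.17), with Ptprc at -0.21 (SE 0.27), Coro1a at -0.13 (SE 0.14), Cd52 at -0.96 (SE 0.19) and Cd37 at -1.02 (SE 0.30). With library size alone 1 was lower and the median was 0.07. The median was -0.44 without normal section 1 and 0.10 without normal section 2. It was -0.12 and -0.19 without ischemic sections 1 and 2. Set against the UMIs of this list, class II UMIs numbered 4.52 and 3.96 per leukocyte-list UMI in normal sections and 0.564 and 0.559 in ischemic sections. Against the resident macrophage list they numbered 1.24 and 1.45 against 0.216 and 0.218, and against the dendritic cell list 33.9 and 29.8 against 7.51 and 7.11. Against the B cell list the ratios were 18.8 and 12.9 against 10.2 and 16.0, and against the T cell list 33.9 and 23.0 against 30.0 and 28.7, so that these overlapped between conditions. The part of each cell type in the fall of the class II genes was not tested.

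Other tissue components also moved with condition. All 5 red cell genes were lower, with the list at 8905 and 9055 CPM in normal and 765 and 1618 CPM in ischemic sections before TMM scaling. All 6 adipocyte genes tested were lower, Adipoq from 18.5 and 7.61 CPM to 0.0883 and 0.105 CPM. Of 6 pelvis genes 5 were lower and 1 did not pass (median -3.17). Before TMM scaling the pelvis list stood at 202 and 530 CPM in normal and 35.2 and 64.5 CPM in ischemic sections. Pelvis spots were capped at the top 5% of each section, so their number does not follow this difference. Endothelial genes had 3 of 8 higher and 1 lower, with Pecam1 at 0.52 and Kdr at -0.44 (5 higher and 0 lower with library size alone, 1 and 1 without ischemic section 2), and all 9 injured tubule genes were higher. All 7 class II presentation genes stayed lower without the 5% of spots richest in adipocyte genes. The log2 difference was then -3.55 for H2-Eb1 and -1.27 for H2-DMb1. Without the spots called pelvis it was -3.43 and -1.23 for these genes. The 5% of spots richest in B and T cell genes held 12.2% and 23.7% of normal and 7.16% and 4.61% of ischemic class II UMIs. Without them the difference was -3.33 and -1.18. These removals did not take away the differences of the lists themselves. The T and B cell medians were still -3.69 and -2.44 without the spots richest in these genes. The pelvis median was -4.25 without pelvis spots, and the adipocyte median -1.89 without adipocyte-rich spots. The part of these components in the fall was not tested.

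**Figure D5:**
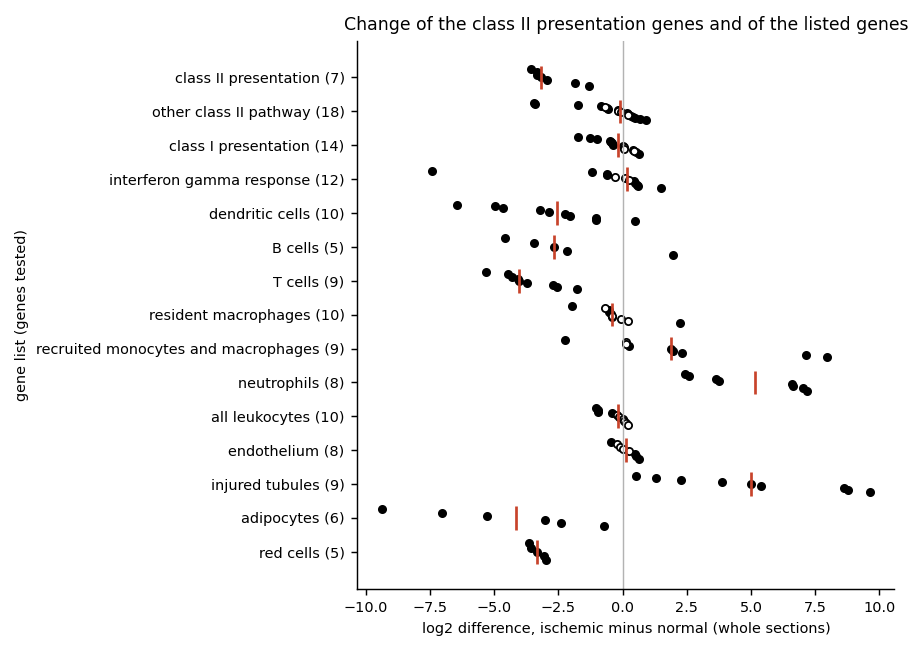
Log2 difference of each gene, ischemic minus normal whole sections, by list with the number of genes tested, filled where the edgeR adjusted p was under 0.05, and the median of each list as a red line. The 7 class II presentation genes lie between -3.56 and -1.31, beside a median of -2.54 for dendritic cell genes, -0.17 for general leukocyte genes and 1.89 for recruited monocytes and macrophages. Genes at 0 in 1 condition are drawn at their fitted value, which is no bound.

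Across spots, the level of each gene was compared with the sum of the other 6. The scale was the log2 of CPM plus 1, before TMM scaling, pooled over a spot and its neighbours. Pearson's r of the chains and Cd74 ran from 0.65 to 0.79 over 2616 and 2682 spots of the normal sections and from 0.28 to 0.34 over 2401 and 2613 spots of the ischemic sections. H2-DMa had 0.48 and 0.43 in normal sections and 0.13 and 0.05 in ischemic sections, H2-DMb1 0.38 and 0.37 against 0.16 and 0.18, and Ciita 0.23 and 0.31 against 0.14 and 0.18. These spots share a library and, through the pooling, their neighbours, and ischemic counts are sparse, so the values are a description.

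Among 10348 other genes with at least 100 counts in every section, the 10 most like the summed class II genes in normal sections were H2-K1, B2m, H2-D1, Lyz2, C1qb, Cst3, Tyrobp, Tmsb10, Cd52 and Ifitm3. H2-K1 had a mean r of 0.66, B2m of 0.61 and Ifitm3, the last, of 0.52. They are class I genes and genes of myeloid cells or of leukocytes in general, with several widely expressed ones. From single spots without pooling, 7 of the 10 stayed among the first 10. In ischemic sections the first 10 were Lgmn, Ddah1, S100g, Tpt1, Cstb, Cltrn, Sat1, Chpt1, Pdzk1 and Akr1a1, with a mean r of 0.27 for Lgmn and 0.25 for Akr1a1. None of the normal 10 was among them with pooling, where H2-K1 had a mean r of 0.09. Without pooling, 2 of the ischemic 10 stayed, and H2-D1, C1qb and Tyrobp of the normal 10 ranked 4, 6 and 8 in the ischemic sections. The ischemic order therefore depends on the pooling, and no change of the most alike genes is read from it.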

How the data were processed

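Spatial counts of 4 Visium kidney sections, 2 normal and 2 ischemic by their labels, were used. The authors ran Space Ranger 1.3.0 (per the file headers) against mm10 (per the submitters' processing notes) and deposited UMI counts of each gene in each tissue spot, not normalized. How reads shared by paralogs were treated could not be checked from these counts. The 7 genes and the gene lists were chosen with earlier results of these data known. Genes named in the text were the 7 members, the 10 most alike genes per condition, and in each list the first 2 genes and the 2 largest rises and falls past the threshold, with Havcr1 and Lcn2. Ctss, Rfx5 and Rfxank fall outside that rule and were chosen after their values were seen.

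Zones came from markers, pooling a spot with at most 6 neighbours (log2 of CPM plus 1, averaged, standardised within the section, highest score): Slc5a2, Slc5a12, Slc34a1, Slc22a6, Slc22a8 and Slc12a3 for cortex, Slc7a13, Cyp7b1, Serpina1f, Slc22a13 and Atp11a for outer stripe, Umod, Slc12a1, Ptger3 and Cldn10 for inner stripe, Aqp2, Fxyd4, Cryab, Akr1b3 and Slc14a2 for inner medulla, and Krt5, Psca and the uroplakins Upk3a, Upk2, Upk1b and Upk1a for pelvis, which needed at least 10 counts and the top 5% of spots.

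Counts were summed over each section, or over each of its zones (minimum 20 spots), and tested with edgeR 4.0.16 in R 4.3.3 (TMM, filterByExpr, quasi-likelihood test, Benjamini-Hochberg over all genes tested, threshold 0.05). Conditions were compared over whole sections and with 1 fit per zone. Zones were compared with cortex, and this difference between conditions, in 1 fit with the section as a block, whose scaling gives the zone CPM printed. On simulated data with 200 changed genes, the whole-section test recovered 198 among 15305 genes with 2 false calls. The cortex test recovered 192 among 13547 with 6, and the test of normal outer stripe against cortex 199 among 14174 with 12. Simulated sections and zones shared a common profile and a fixed spread, and only well-counted genes were changed. These rates therefore do not carry over to sparse genes such as Ciita, to unlike zones or to many changed genes. Shares of spots have exact (Clopper-Pearson) 95% intervals. Spots under 2000 UMIs, 48 to 150 per section, were left out of thinned shares. Spots under 500 UMIs, 10 to 35 per section, were left out of the top spots. Alternatives were DESeq2 1.42.0, other scaling, no filter on low counts, other spots or zones, leaving out each section, and a replicate block. The study's other sections and assays were not analysed here.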

Additional observations from a re-analysis of the deposited data

Results flagged for a closer look

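The zone differences that changed with ischemia are listed as the change of the log2 difference from cortex, ischemic minus normal, by edgeR's interaction term with adjusted p under 0.05 over all genes tested. In the inner medulla the change was -2.83 for H2-Aa, -2.21 for H2-Ab1, -2.52 for H2-Eb1, -1.65 for Cd74, -1.88 for H2-DMa and -2.93 for H2-DMb1. In the pelvis it was -1.75 for H2-Aa, -1.92 for H2-Ab1, -2.07 for H2-Eb1, -1.58 for Cd74, -2.47 for H2-DMa, -1.93 for H2-DMb1 and -7.30 for Ciita. In the inner stripe it was -1.55 for H2-Aa, -1.57 for H2-Ab1, -2.05 for H2-Eb1, -1.17 for Cd74, -1.29 for H2-DMa, -2.23 for H2-DMb1 and -5.62 for Ciita. In the outer stripe it was -0.68 for H2-Ab1, -1.01 for H2-Eb1, -0.67 for Cd74, -1.28 for H2-DMa and -1.80 for H2-DMb1. The values for Ciita come from zones without a UMI in either ischemic section and are no bound. Ischemic zones were less sure than normal ones, and normal spots called inner medulla also carried pelvis genes. The part of this in the changes was not tested.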

How the results depend on the processing

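All 7 genes stayed lower over whole sections under every alternative run, with log2 differences from -3.71 to -3.31 for H2-Eb1 and from -1.50 to -1.07 for H2-DMb1. Leaving out 1 section gave 7 of 7 calls over whole sections, 32 to 34 by zone, 20 to 24 for normal zones against cortex, 9 to 14 for ischemic zones and 15 to 26 for the change of the zone difference, the lowest without ischemic section 1. For all genes tested it gave 6493 to 10877 calls. DESeq2 gave 7633. Library size alone gave 5750 higher and 2829 lower in place of 4737 and 4542, as it moved the median of all genes by 0.27. With the replicate block 5197 genes were higher and 4892 lower, all 7 members were called and 34 of 35 zone pairs, the same counts as without it. It was not run for the comparisons of zones with cortex, whose fit has the section as a block. Replicate numbers are only shared by the labels: the deviations of sections with the same number correlated at 0.162 over 2 pairs, which does not pair them. Of 1457 single values recomputed, 1375 kept direction and side of the threshold, 72 lost it and 5 gained it. Direction turned in 5, none past the threshold: H2-DMb1 in cortex between conditions with library size alone (0.0011), Ciita in outer stripe for the change of the zone difference without boundary spots (0.012) and without ischemic section 1 (0.077, against -0.89 without ischemic section 2), and, in normal inner stripe against cortex without normal section 1, Ciita (-0.0011, against 0.73 without normal section 2) and H2-Aa (-0.011, against 0.70 without normal section 2). Thinned to 2000 UMIs, the shares of spots with a class II UMI were 62.1%, 67.1%, 19.0% and 17.8%, and the top 5% of spots held 31.3%, 44.3% and 45.2% of class II UMIs in normal section 1 and ischemic sections 1 and 2, shares that also move with the number of class II UMIs left. From single spots, 2 of the 10 most alike ischemic genes stayed. With 15 and 18 ischemic UMIs, Ciita is limited by depth. The causes were not tested.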
